A study of Mus musculus with 6 samples.

Results

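The genes described here encode the machinery that brings nuclear-encoded proteins into mitochondria, folds them and degrades those that are damaged or in excess. They are the protein-coding genes of the expression table whose symbol begins with Tomm or Timm followed by a number, together with Hspd1, Hspe1, Hspa9, Lonp1, Clpp, Clpx, Htra2, Yme1l1, Afg3l2, Spg7, Phb and Phb2. The rule found 37 genes of 54532. Of these, 34 had a mean of at least 1 FPKM (fragments per kilobase of gene length, scaled to library size) over the 6 libraries and were tested.

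Messenger RNA was sequenced from hearts of Ythdc1-CKO mice (CKO, conditional knockout, 3 libraries) and of Ythdc1flox/flox mice (flox, floxed alleles, 3 libraries), in both groups after 15 days of normal chow. Ythdc1 encodes a nuclear protein that binds N6-methyladenosine in RNA, and the design sets hearts in which it is deleted against hearts with floxed alleles. The labels describe independent biological replicates, while age, sex, the Cre driver, the cells it reaches and the deleted exons are not stated there; the design text writes HKO for the knockout.

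Nearly all mitochondrial proteins are made in the cytosol. They pass the outer membrane through the TOM complex and are then sorted, by TIM23 into the matrix or inner membrane and by small chaperones and TIM22 into the inner membrane. In the matrix, mortalin pulls the chain in and the HSP60 and HSP10 chaperonin folds it, while LON, CLPXP and the membrane-bound AAA proteases remove faulty proteins. Cardiac muscle is dense in mitochondria, and loss of several of these proteins is known to harm heart or nerve.

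Ythdc1 (ENSMUSG00000035851, GRCm38 chromosome 5, 86804221 to 86836659) measured 2.39, 2.57 and 2.34 FPKM in CKO hearts, against 4.31, 3.64 and 4.11 FPKM in flox hearts. All CKO libraries lay below all flox libraries; reads were counted over the whole gene, deleted exons included. The log2 fold change was -0.54 (SE 0.09, limma adjusted p = 0.015), and an exact 2-sided permutation test gave p = 0.1, the smallest that 3 against 3 libraries allow. The call was lost without CKO 3 (limma adjusted p = 0.0535), without flox 1 (0.0707), without flox 3 (0.0637) and with every library set to the same FPKM sum (0.0888). Log2 fold changes here are CKO minus flox on the scale of log2(FPKM + 1), which understates changes of low genes. A gene is called where limma's Benjamini-Hochberg adjusted p over all tested genes was under 0.05.

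Libraries held 17434296 to 19360428 gene-assigned reads. CKO 3 stood apart from the others in sex-linked transcripts, with 4037 Xist reads against 0 to 5 elsewhere. Its Ddx3y level, from the Y chromosome, was 0.350 FPKM, and the remaining libraries had 10.8 to 15.9 FPKM. Of 5 cardiomyocyte markers, Tnni3 was called lower, and their summed level was 4457 to 6508 FPKM in CKO hearts and 6162 to 6861 FPKM in flox hearts. The 6 fibroblast markers summed to 418 to 654 FPKM in CKO hearts and 282 to 372 FPKM in flox hearts, with Tcf21 called higher, and the 5 macrophage and leukocyte markers summed to 47.5 to 545 FPKM in CKO hearts and 64.8 to 134 FPKM in flox hearts. The 4 atrial markers summed to 547 to 2100 FPKM in CKO hearts and 153 to 395 FPKM in flox hearts, with Nppa called higher and Sln lower. Skeletal muscle markers summed to 191 to 347 FPKM in CKO hearts and 385 to 507 FPKM in flox hearts. Brown adipose markers summed to 37.5 to 85.9 FPKM in CKO hearts and 23.0 to 31.4 FPKM in flox hearts. Only 1 of 4 skeletal muscle and 1 of 4 brown adipose markers averaged at least 1 FPKM. Each of these sums therefore rests largely on 1 gene and does not measure the tissue. Endothelial markers summed to 179 to 244 FPKM in CKO hearts and 243 to 245 FPKM in flox hearts, with Tie1 called lower. Sums of smooth muscle and erythroid markers overlapped between the groups. CKO 2 had the lowest share of reads on mitochondrially encoded genes, 14.4% against at least 18.4% in the others. None of the listed markers was at 0 in all libraries, and the part of markers, mitochondrial reads or sex-linked transcripts in the differences below was not tested. In bulk tissue, fewer cells of a type and less RNA per cell cannot be told apart.

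Most transcripts of the import, folding and degradation machinery did not pass the test. Of the 34 tested members, 1 was called higher (Afg3l2), 1 was called lower (Timm21) and 32 were not called. Without CKO 2, CKO 3 or flox 3, limma called Timm21 alone (1 member). Without flox 1 or flox 2 it called 0, with 7 members at an unadjusted p under 0.05 in each. Over all tested genes, calls fell from 1358 to 715 without CKO 2, 579 without CKO 3 and 472 without flox 3. They fell to 315 without flox 1 and 602 without flox 2. Without CKO 1, limma called 2 members and 1490 genes in all. Limma with voom weights, run on read counts recovered from the FPKM, called the same 2 members and 11.8% of all tested genes. In the fit of all libraries, the 2 called are 5.88% of the members tested, while 11.2% of all 12144 tested genes were called, 5.69% higher and 5.49% lower. The median log2 fold change of the members was -0.07 and that of all tested genes 0.01. Log2 fold changes were negative for 21 members and positive for 13, or 61.8% negative against 48.9% of all genes. CKO and flox libraries did not overlap in 9 members (26.5%), against 34.3% of all tested genes. Afg3l2 and Lonp1 were higher in every CKO library than in any flox library, and Clpp, Spg7, Timm44, Timm29, Timm21, Timm22 and Timm9 were lower.

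**Figure D1:**
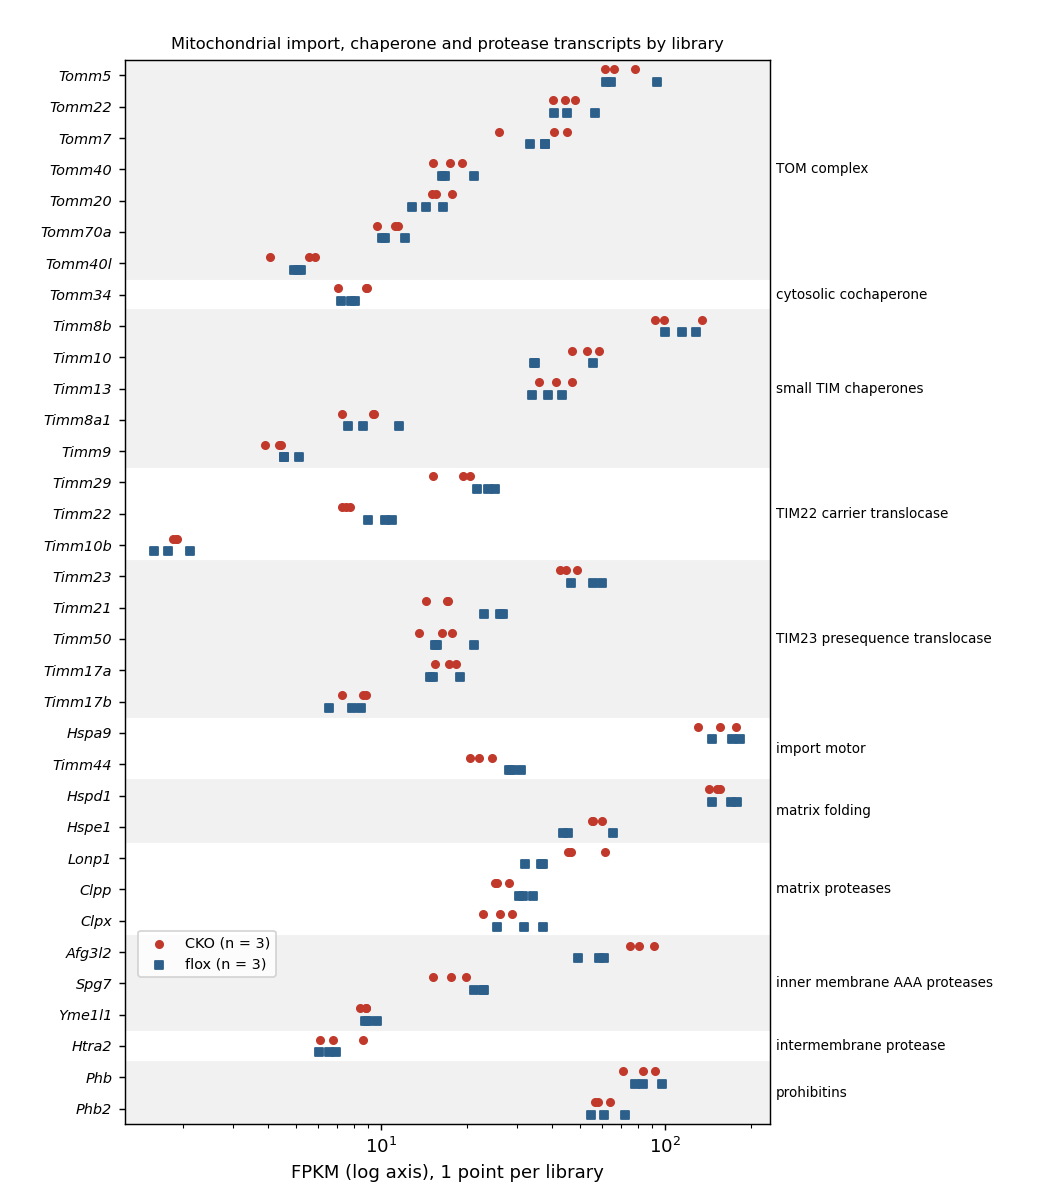
Level of the 34 tested members in each library, in FPKM on a log axis, with CKO libraries as circles above flox libraries as squares and genes grouped by role. Mean levels run from 1.86 FPKM for Timm10b to 161 FPKM for Hspa9, and the points of the groups overlap in all but 9 genes.

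**Figure D2:**
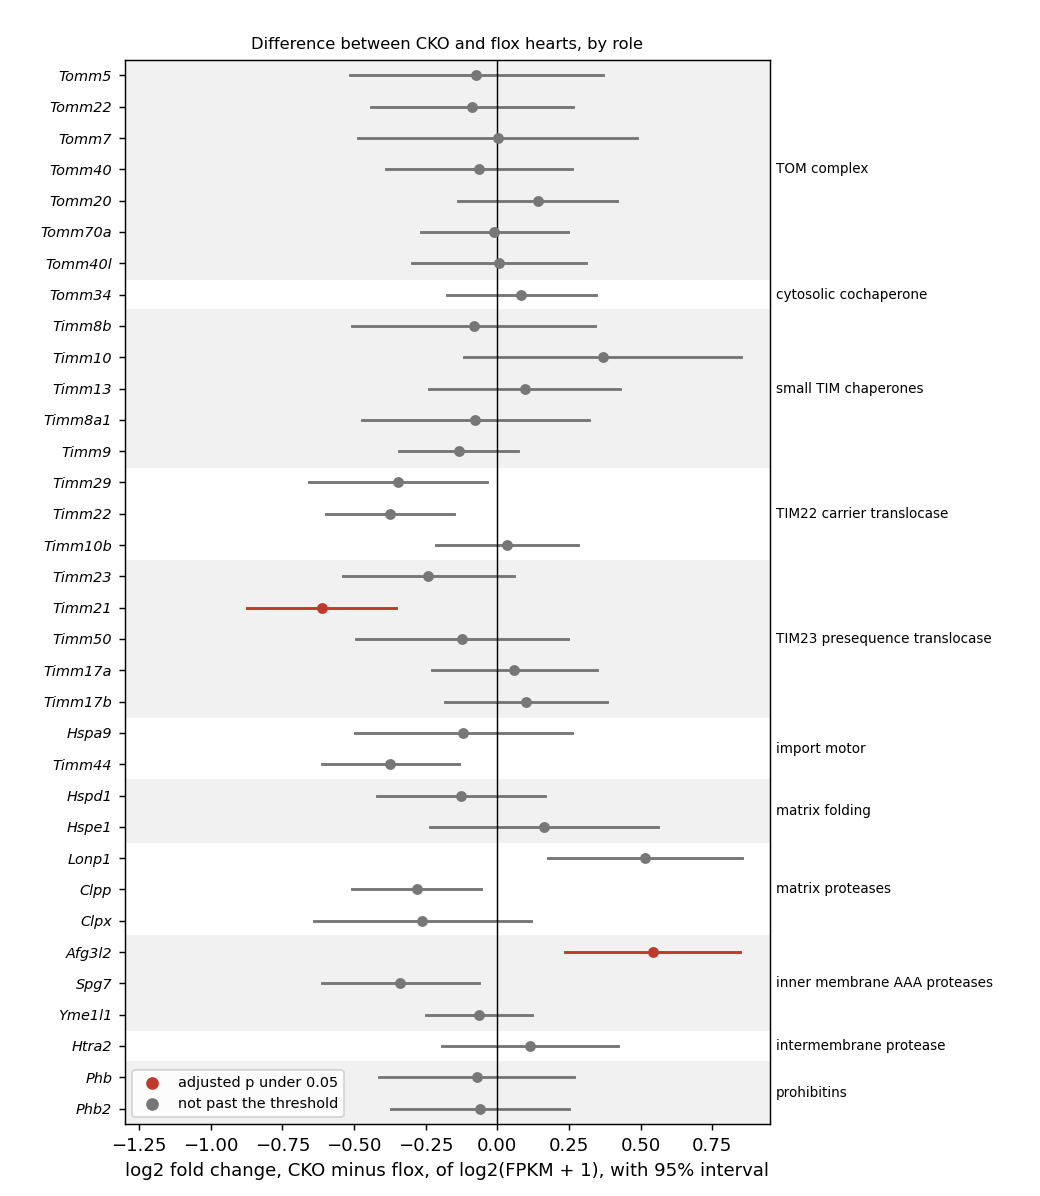
Log2 fold change of log2(FPKM + 1), CKO minus flox, with its 95% interval for the 34 tested members, grouped by role. Afg3l2 at 0.54 and Timm21 at -0.61 are the 2 genes past the threshold.

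No gene of the outer membrane entry gate passed the test. None of the 7 tested TOM genes was called by limma, 0 had an unadjusted p under 0.05, and voom on the recovered reads called 0. Over all 12144 tested genes, limma called 11.2% and 3365 had an unadjusted p under 0.05. Their log2 fold changes ran from -0.09 (Tomm22) to 0.14 (Tomm20). Tomm20, a receptor for proteins with a presequence, measured 15.6, 15.1 and 17.7 FPKM in CKO hearts and 12.9, 16.5 and 14.4 FPKM in flox hearts. The groups overlapped, since flox 2 exceeded CKO 1 and CKO 2 (log2 fold change 0.14, 95% interval -0.14 to 0.42, limma adjusted p = 0.485). For Tomm70a, the receptor of carrier proteins, the values were 9.63, 11.4 and 11.2 FPKM in CKO hearts and 10.1, 12.1 and 10.3 FPKM in flox hearts (-0.01, 95% interval -0.27 to 0.25, limma adjusted p = 0.964). Tomm40, the channel itself, had 15.2, 19.2 and 17.4 FPKM in CKO hearts and 16.4, 21.3 and 16.7 FPKM in flox hearts (-0.06, 95% interval -0.39 to 0.26, limma adjusted p = 0.805). In both genes the ranges overlapped.

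Tomm22, the central receptor that holds channels together, averaged 44.2 ± 4.07 FPKM in CKO hearts and 47.4 ± 8.37 FPKM in flox hearts (SD, n = 3 each). The small subunit Tomm5 was the most abundant TOM transcript, at 68.6 ± 8.61 FPKM in CKO hearts and 73.2 ± 17.4 FPKM in flox hearts. Tomm7, another small subunit, had 37.2 ± 10.0 FPKM in CKO hearts and 36.3 ± 2.57 FPKM in flox hearts. Its spread in CKO hearts came from CKO 2, at 26.0 FPKM against 40.5 and 45.2 FPKM in the other CKO libraries. Tomm40 made up 76.9% ± 5.28 of the summed FPKM of Tomm40 and its paralog Tomm40l in CKO hearts and 78.0% ± 2.50 in flox hearts (exact 2-sided permutation p = 0.8, smallest possible 0.1). Of the exonic bases of Tomm40l, 64.3% lie opposite Nr1i3, which averaged 0.0264 FPKM, and the counting was not stated to use strand. Tomm34, a cytosolic cochaperone that binds heat shock proteins despite its name, had 8.26 ± 1.07 FPKM in CKO hearts and 7.70 ± 0.454 FPKM in flox hearts.

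Tomm6 and Tomm20l, with the small chaperone paralog Timm8a2, fell below the filter and were not tested. Tomm6 had 0 to 3 reads per library. Of its exonic bases, 76.0% are shared with Gm21981, a protein-coding gene annotated on the same strand, so how the reads were assigned bears on that value. Tomm20l had 0 to 2 reads and Timm8a2 0 to 1 reads.

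The chaperones of the intermembrane space escort carrier and other hydrophobic proteins from TOM to the inner membrane, Timm9 with Timm10 and Timm8a1 or Timm8b with Timm13. None of the 5 tested genes was called by limma, against 11.2% of all tested genes. Of the 5, 0 had an unadjusted p under 0.05, and voom called 0. Timm8b, of whose exonic bases 15.6% lie opposite Nkapd1, was the most abundant of them, at 92.3, 98.9 and 135 FPKM in CKO hearts and 114, 128 and 99.7 FPKM in flox hearts. Timm10 measured 53.1, 47.0 and 58.3 FPKM in CKO hearts, against 34.8, 55.5 and 34.4 FPKM in flox hearts. CKO values lay close together, while flox 2 stood above the other flox libraries and within the CKO range (log2 fold change 0.37, 95% interval -0.11 to 0.85, limma adjusted p = 0.291). Its partner Timm9 had 3.89, 4.45 and 4.36 FPKM in CKO hearts and 4.54, 5.13 and 4.56 FPKM in flox hearts. The groups did not overlap (-0.13, limma adjusted p = 0.369), as in 34.3% of all tested genes. Timm13 averaged 41.3 ± 5.49 FPKM in CKO hearts and 38.6 ± 4.73 FPKM in flox hearts. X-linked Timm8a1, whose human counterpart is mutated in a deafness and dystonia syndrome, had 8.69 ± 1.24 FPKM in CKO hearts and 9.28 ± 2.04 FPKM in flox hearts, and CKO 3 was at 9.36 FPKM.

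The TIM22 complex inserts carrier proteins such as the ADP/ATP exchanger into the inner membrane. Timm22 and Timm29, its membrane subunits among the members, were lower in all CKO libraries, but neither passed. Over all tested genes, 34.3% had groups that did not overlap. Timm22, the channel, measured 7.79, 7.52 and 7.25 FPKM in CKO hearts, against 8.98, 10.9 and 10.3 FPKM in flox hearts. CKO libraries were tightly grouped below the lowest flox library (log2 fold change -0.37, 95% interval -0.60 to -0.15, limma adjusted p = 0.0508). The gene passed with a filter at a mean of 5 FPKM (limma adjusted p = 0.0419), and in 1 of 13 alternatives in all. Timm29, a subunit of the complex in mammals, had 20.5, 15.2 and 19.5 FPKM in CKO hearts and 25.2, 23.7 and 21.8 FPKM in flox hearts. CKO 2 was the lowest library (-0.35, limma adjusted p = 0.141). Timm10b, the small TIM bound to the complex, averaged 1.89 ± 0.0315 FPKM in CKO hearts and 1.83 ± 0.268 FPKM in flox hearts. Summed over these 3 genes, levels were 24.6 to 30.2 FPKM in CKO hearts and 34.2 to 36.4 FPKM in flox hearts.

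Timm21 was lower in CKO hearts, the only call among the 5 genes of the TIM23 complex. Timm21 encodes the subunit that links TIM23 to the TOM complex and, in human cells, helps assemble respiratory chain intermediates. The gene (ENSMUSG00000024645, GRCm38 chromosome 18, 84947294 to 84951524, minus strand) measured 17.0, 14.4 and 17.2 FPKM in CKO hearts, against 26.8, 26.1 and 23.0 FPKM in flox hearts, from 368 to 603 reads per library. Every CKO library was below every flox library, with a gap between 17.2 and 23.0 FPKM. Means were 16.2 ± 1.58 FPKM in CKO hearts and 25.3 ± 2.03 FPKM in flox hearts (SD, n = 3 each), a ratio of 0.641. The log2 fold change was -0.61 (SE 0.11, 95% interval -0.87 to -0.35, limma adjusted p = 0.020). The call was lost without flox 1 (limma adjusted p = 0.0869) and without flox 2 (0.0666), and it held without CKO 3 (0.0487).

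The other subunits of TIM23 were not called. Timm23, which forms the channel with Timm17a or Timm17b, had 42.4, 44.7 and 48.9 FPKM in CKO hearts and 46.4, 55.8 and 59.7 FPKM in flox hearts. The ranges overlapped at flox 1 (log2 fold change -0.24, 95% interval -0.54 to 0.06, limma adjusted p = 0.265). Timm50, the receptor that takes presequences from TOM, had 13.6, 17.7 and 16.4 FPKM in CKO hearts and 15.7, 21.3 and 15.5 FPKM in flox hearts (-0.12, 95% interval -0.49 to 0.25, limma adjusted p = 0.658). Timm17a had 15.4, 17.4 and 18.3 FPKM in CKO hearts and 15.2, 18.9 and 14.9 FPKM in flox hearts (0.06, 95% interval -0.23 to 0.35, limma adjusted p = 0.795). X-linked Timm17b had 8.65, 7.30 and 8.83 FPKM in CKO hearts and 6.57, 8.51 and 7.89 FPKM in flox hearts (0.10, 95% interval -0.18 to 0.38, limma adjusted p = 0.641). Timm17a and Timm17b are paralogs used in alternative forms of the channel. Timm17a made up 67.3% ± 3.17 of their summed FPKM in CKO hearts and 68.1% ± 2.37 in flox hearts (exact 2-sided permutation p = 0.8).

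The motor that draws proteins into the matrix consists of Hspa9 (mortalin, mitochondrial HSP70), Timm44, which tethers it to the channel, and J-domain partners. Timm44 measured 20.6, 24.6 and 22.1 FPKM in CKO hearts, against 28.8, 31.0 and 28.1 FPKM in flox hearts. All CKO libraries were below all flox libraries (log2 fold change -0.37, 95% interval -0.61 to -0.13, limma adjusted p = 0.0613). With voom the adjusted p was 0.0548. Of all tested genes, 34.3% had groups that did not overlap. Hspa9 was the most abundant of all members, with 130, 156 and 178 FPKM in CKO hearts and 172, 184 and 146 FPKM in flox hearts. Its lowest value was CKO 1, and CKO 3 exceeded flox 1 and flox 3 (-0.12, 95% interval -0.50 to 0.26, limma adjusted p = 0.681).

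The chaperonin genes were also not called. Hspd1 (HSP60) had 143, 156 and 152 FPKM in CKO hearts and 170, 179 and 146 FPKM in flox hearts. Flox 3 lay within the CKO range (log2 fold change -0.13, 95% interval -0.42 to 0.17, limma adjusted p = 0.558). Hspe1 (HSP10, the lid of the chaperonin) had 55.1, 55.8 and 59.9 FPKM in CKO hearts and 45.4, 65.7 and 43.7 FPKM in flox hearts. CKO libraries fell between flox 2 and the other flox libraries (0.16, 95% interval -0.24 to 0.56, limma adjusted p = 0.586). A processed copy, Hspd1-ps3, was listed at 2.97 to 5.67 FPKM over all libraries, so some reads of the chaperonin may be split between them.

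Hspd1 and Hspe1 lie head to head on chromosome 1 and share 112 exonic bases. Their promoter windows, each from 250 bases before to 50 after the start (RefSeq, GRCm38.p6), are shown because heat shock motif letters lie in the Hspe1 window and in a second annotated Hspd1 window. Capitals mark matches on either strand to the letters searched, GAA, any 2 bases, TTC, any 2 bases, GAA for HSF, GCGCA, any 1 base, GCGC for NRF1, CCGGAAGT for ETS, TCAAGGTCA for ERR, TGATGNAAT for ATF4-CHOP and TGACGTCA for CRE. In the Hspe1 window (chr1:55087898-55088197, plus strand) they cover 2 overlapping HSF matches that begin 89 and 84 bases before the start. In the Hspd1 window (chr1:55088194-55088493, minus strand) they mark 1 NRF1 match that begins 59 bases before the start. The HSF letters lie outside that window and inside the second one (chr1:55087883-55088182, minus strand).
Hspe1: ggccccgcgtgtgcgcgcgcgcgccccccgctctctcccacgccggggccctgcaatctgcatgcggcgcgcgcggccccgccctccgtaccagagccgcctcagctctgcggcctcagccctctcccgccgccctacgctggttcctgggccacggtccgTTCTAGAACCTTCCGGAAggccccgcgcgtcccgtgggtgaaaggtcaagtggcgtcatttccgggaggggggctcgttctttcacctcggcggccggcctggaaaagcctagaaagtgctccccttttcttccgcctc
Hspd1: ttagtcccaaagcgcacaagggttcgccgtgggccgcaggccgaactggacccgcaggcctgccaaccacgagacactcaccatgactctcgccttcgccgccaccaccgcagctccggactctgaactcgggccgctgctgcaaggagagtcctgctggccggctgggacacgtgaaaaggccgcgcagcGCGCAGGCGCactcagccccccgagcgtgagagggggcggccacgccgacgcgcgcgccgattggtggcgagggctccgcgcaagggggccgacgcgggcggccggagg

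Promoter windows were matched for 31 of the 37 members. Hspa9, Afg3l2, Timm21, Htra2, Tomm7 and Tomm40l had no matched window and were not searched, so both called members are missing from these shares. HSF letters were found in Hspd1, Hspe1 and Timm9, which is 3 of 31 members against 0.662% of all 27025 genes with a window. The matches of Hspe1 and of the second Hspd1 window are the same bases, seen from overlapping windows, and are not separate sites. NRF1 letters were found in 5 members (Hspd1, Phb, Spg7, Timm8b and Tomm20), against 5.19% of all genes. ETS letters occurred in 7 members (Phb2, Timm10, Timm10b, Timm23, Timm29, Timm8a2 and Tomm70a), against 4.31% of all genes, and ERR letters in Timm8b alone, against 0.466%. No member window held the ATF4-CHOP letters (1.08% of all genes) or the CRE letters (2.03%), and the letters CCAAT, not capitalised in the sequences, were in 11 members against 41.1% of all genes. A match describes letters in a window and does not show that the factor binds there.

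Among the proteases, Afg3l2 was called higher in CKO hearts. Without being called, Lonp1 was higher in every CKO library than in any flox library, and Clpp and Spg7 were lower. The groups did not overlap in 34.3% of all tested genes. Afg3l2 encodes the catalytic subunit of the m-AAA protease, which degrades inner membrane proteins and processes others on the matrix side. The gene (ENSMUSG00000024527, GRCm38 chromosome 18, 67404767 to 67449166, minus strand) measured 74.9, 80.7 and 91.3 FPKM in CKO hearts, against 58.5, 60.8 and 49.4 FPKM in flox hearts, from 3040 to 5103 reads per library. The lowest CKO library was above the highest flox library. Means were 82.3 ± 8.32 FPKM in CKO hearts and 56.2 ± 6.01 FPKM in flox hearts (SD, n = 3 each), a ratio of 1.46. The log2 fold change was 0.54 (SE 0.13, 95% interval 0.24 to 0.85, limma adjusted p = 0.043). The call was lost without CKO 2 (limma adjusted p = 0.0939), CKO 3 (0.109), flox 1 (0.124), flox 2 (0.079) and flox 3 (0.133), and without a filter on low genes (0.0735).

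Spg7 (paraplegin) assembles with Afg3l2 in the m-AAA protease, and its human counterpart is mutated in a hereditary spastic paraplegia. It had 17.6, 15.2 and 19.9 FPKM in CKO hearts, against 23.0, 22.8 and 21.2 FPKM in flox hearts. No CKO library reached the lowest flox library, although CKO 3 came close (log2 fold change -0.34, 95% interval -0.61 to -0.07, limma adjusted p = 0.111). The ratio of Afg3l2 to Spg7 FPKM was 4.26, 5.33 and 4.60 in CKO hearts, against 2.55, 2.66 and 2.33 in flox hearts. Its means were 4.73 ± 0.546 in CKO hearts and 2.51 ± 0.167 in flox hearts; the ratio was chosen after its values were seen and was not tested. Yme1l1, the AAA protease that faces the intermembrane space, had 8.71 ± 0.230 FPKM in CKO hearts and 9.15 ± 0.463 FPKM in flox hearts (-0.06, limma adjusted p = 0.645).

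Lonp1 (ENSMUSG00000041168, GRCm38 chromosome 17, 56614297 to 56626887, minus strand) encodes the matrix AAA protease that degrades oxidised proteins and binds mitochondrial DNA. It measured 45.5, 46.4 and 61.4 FPKM in CKO hearts, against 37.1, 36.5 and 32.1 FPKM in flox hearts. CKO 3 was the highest library, and the others also exceeded every flox library. Means were 51.1 ± 8.92 FPKM in CKO hearts and 35.2 ± 2.70 FPKM in flox hearts (SD, n = 3 each). The log2 fold change was 0.51 (SE 0.14, 95% interval 0.18 to 0.85) and did not pass (limma adjusted p = 0.0659). The gene passed in 1 of 13 alternatives, with every library set to the same FPKM sum (limma adjusted p = 0.0389). Without CKO 3 the log2 fold change was 0.38 (limma adjusted p = 0.117).

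Clpp, the peptidase chamber of the other matrix protease, had 25.5, 25.0 and 28.1 FPKM in CKO hearts, against 30.5, 34.2 and 31.5 FPKM in flox hearts. CKO libraries were all lower (log2 fold change -0.28, 95% interval -0.51 to -0.06, limma adjusted p = 0.109). Clpx, its unfoldase partner, had 26.2, 22.8 and 28.8 FPKM in CKO hearts and 37.2, 31.9 and 25.5 FPKM in flox hearts. Flox 3 lay within the CKO range (-0.26, 95% interval -0.64 to 0.12, limma adjusted p = 0.335). The ratio of Lonp1 to Clpp FPKM was 1.79, 1.85 and 2.18 in CKO hearts and 1.22, 1.07 and 1.02 in flox hearts, also chosen after its values were seen and not tested.

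The promoter windows of Lonp1 (chr17:56626854-56627153, minus strand) and Spg7 (chr8:123065258-123065557, plus strand) are shown because Lonp1 was higher and Spg7 lower in every CKO library. Spg7 holds 2 NRF1 matches that begin 66 and 4 bases before the start, and Lonp1 holds none of the letters marked by capitals.
Lonp1: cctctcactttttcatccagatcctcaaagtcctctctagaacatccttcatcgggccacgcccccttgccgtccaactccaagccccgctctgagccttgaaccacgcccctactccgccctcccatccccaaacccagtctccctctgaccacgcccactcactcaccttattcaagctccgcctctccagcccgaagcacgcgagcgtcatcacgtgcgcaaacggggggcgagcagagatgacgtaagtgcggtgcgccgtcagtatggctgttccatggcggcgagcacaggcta
Spg7: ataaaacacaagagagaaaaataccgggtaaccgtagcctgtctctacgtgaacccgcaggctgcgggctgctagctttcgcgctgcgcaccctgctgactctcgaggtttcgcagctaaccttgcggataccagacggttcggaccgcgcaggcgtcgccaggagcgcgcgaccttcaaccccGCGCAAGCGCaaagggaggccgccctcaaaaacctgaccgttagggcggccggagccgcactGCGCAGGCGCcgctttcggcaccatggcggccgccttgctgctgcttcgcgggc

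**Figure D3:**
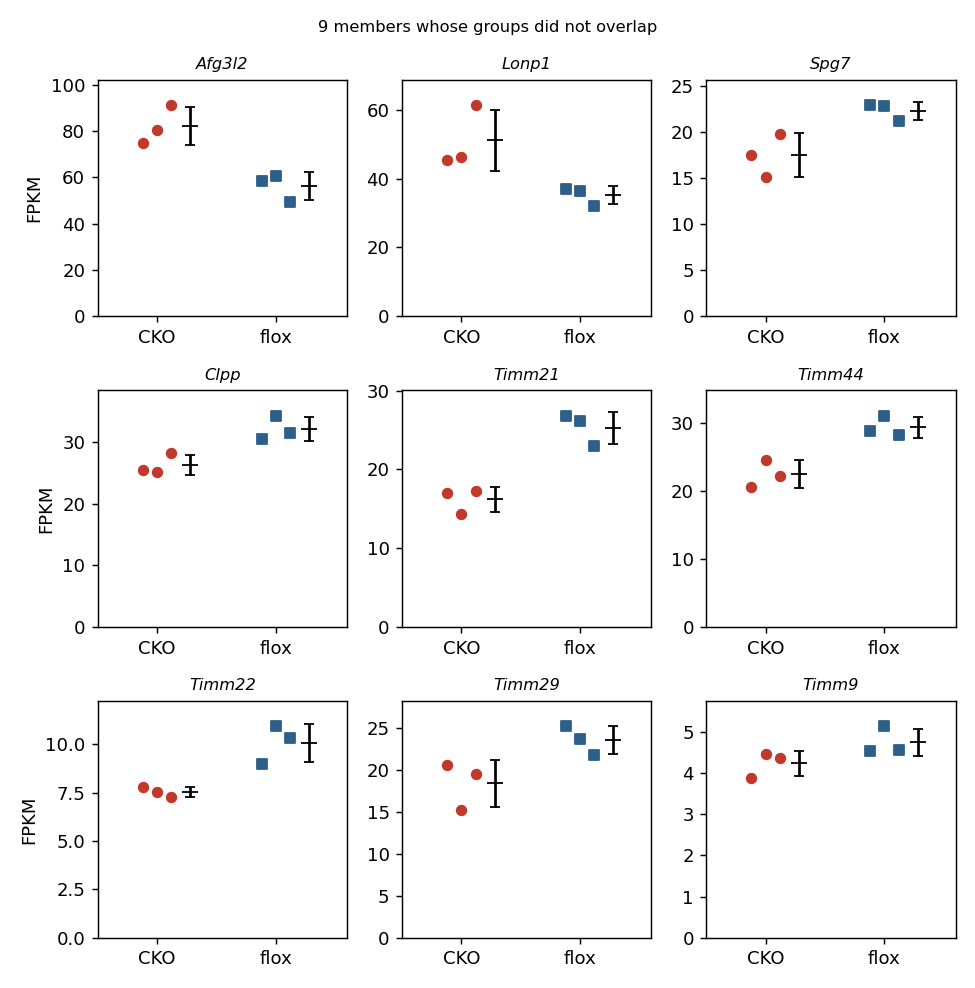
FPKM of the 9 members whose CKO and flox libraries did not overlap, 1 point per library, with mean ± SD beside the points and axes that start at 0. Afg3l2 and Lonp1 are higher in CKO hearts, and the other 7 are lower.

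Htra2, Phb and Phb2 were not called. Htra2, a serine protease of the intermembrane space, had 8.65, 6.77 and 6.07 FPKM in CKO hearts and 6.04, 6.90 and 6.52 FPKM in flox hearts (log2 fold change 0.11, limma adjusted p = 0.625). CKO 1 was the highest library, and the rest overlapped. Of its exonic bases 25.6% lie opposite Aup1 and 18.2% opposite Loxl3, which leaves its level uncertain. Phb and Phb2 form a ring scaffold in the inner membrane that holds the m-AAA protease. Phb averaged 82.2 ± 10.6 FPKM in CKO hearts and 86.4 ± 10.2 FPKM in flox hearts (-0.07, limma adjusted p = 0.790). Phb2 averaged 59.5 ± 3.96 FPKM in CKO hearts and 62.4 ± 8.79 FPKM in flox hearts (-0.06, limma adjusted p = 0.807). In all, 16 of the 37 members share exonic bases with another annotated gene, and Afg3l2, Timm21, Lonp1, Clpp, Spg7, Timm44 and Timm22 share none.

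Among 33 further genes of import, presequence processing and quality control, 1 was called higher, 2 were called lower and 30 were not called. The share called was 9.09%, against 11.2% of all tested genes. Gfer rose and Afg1l and Oxa1l fell. Gfer encodes the sulfhydryl oxidase that recharges Chchd4 (MIA40) in the disulfide relay of the intermembrane space. The gene (ENSMUSG00000040888, GRCm38 chromosome 17, 24693191 to 24696156, minus strand) had 11.9, 13.2 and 12.7 FPKM in CKO hearts, against 6.60, 7.44 and 7.09 FPKM in flox hearts. All CKO libraries were well above all flox libraries (log2 fold change 0.76, SE 0.08, limma adjusted p = 0.00607), and the call held in all 13 alternatives. Its partner Chchd4 averaged 5.75 ± 0.453 FPKM in CKO hearts and 5.53 ± 0.869 FPKM in flox hearts.

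Afg1l, an ATPase of mitochondria related to a yeast factor in protein quality control, had 9.83, 10.8 and 10.2 FPKM in CKO hearts, against 18.6, 20.7 and 15.5 FPKM in flox hearts. No library of one group reached the other (log2 fold change -0.76, SE 0.12, limma adjusted p = 0.0129), and the call was lost only without flox 1 (0.0607) among 13 alternatives. Oxa1l, the insertase for proteins that enter the inner membrane from the matrix side, had 20.8, 23.2 and 23.6 FPKM in CKO hearts, against 30.3, 31.5 and 30.1 FPKM in flox hearts. The lowest flox library was above the highest CKO library (-0.43, SE 0.09, limma adjusted p = 0.0304). The call was lost when any of the libraries was left out (limma adjusted p = 0.0568 without CKO 1, 0.0631 without CKO 2, 0.0645 without CKO 3, 0.111 without flox 1, 0.0879 without flox 2 and 0.0933 without flox 3) and with every library set to the same FPKM sum (0.182), and it held in 5 of 13 alternatives.

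**Figure D4:**
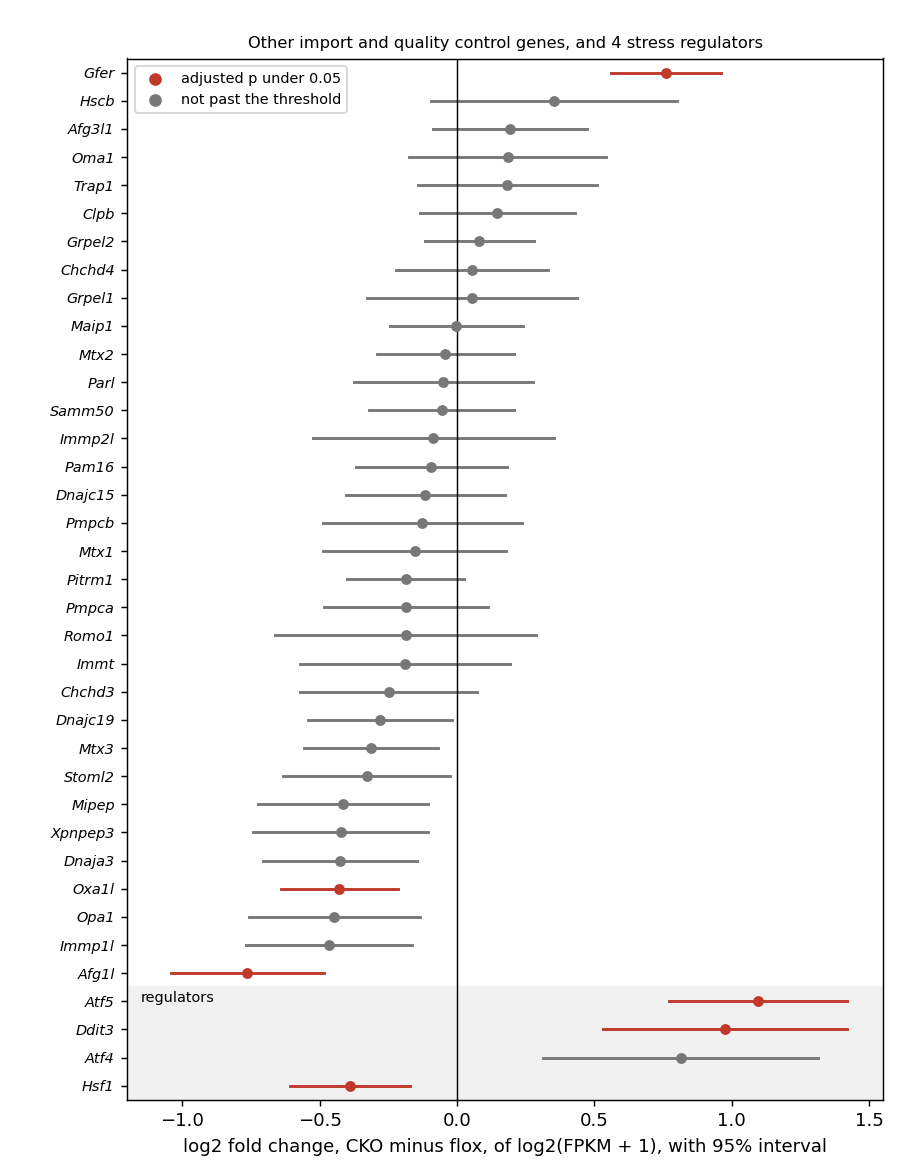
Log2 fold change of log2(FPKM + 1), CKO minus flox, with its 95% interval for 33 other import and quality control genes and, on the shaded rows, 4 stress regulators. Gfer, Atf5 and Ddit3 are called higher, and Afg1l, Oxa1l and Hsf1 are called lower.

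Listed apart were 4 transcription factors known to act on mitochondrial chaperones and proteases under stress. Atf5 and Ddit3 were called higher, Hsf1 was called lower and Atf4 was not called. The 4 factors were chosen with earlier results of these data known. Over all tested genes, 11.2% were called and 34.3% had groups that did not overlap. Atf5, a factor of the mitochondrial unfolded protein response, had 57.9, 46.6 and 65.2 FPKM in CKO hearts, against 24.9, 26.3 and 25.8 FPKM in flox hearts. CKO libraries were all higher (log2 fold change 1.10, SE 0.14, limma adjusted p = 0.00767), and the call held in all 13 alternatives. Ddit3 (CHOP) had 24.0, 15.2 and 23.8 FPKM in CKO hearts, against 10.9, 8.84 and 10.3 FPKM in flox hearts. CKO 2 was the lowest CKO library yet above every flox library (0.98, SE 0.19, limma adjusted p = 0.0245). A second annotated Ddit3 entry shares 6.13% of its exonic bases. Its call was lost without CKO 3 (limma adjusted p = 0.0719), flox 1 (0.0764), flox 2 (0.079) and flox 3 (0.0748), and without a filter on low genes (0.0574). Atf4, which drives the integrated stress response, had 54.6, 79.0 and 93.8 FPKM in CKO hearts and 39.9, 48.0 and 37.8 FPKM in flox hearts. Groups did not overlap, but the spread of the CKO libraries was wide (0.81, 95% interval 0.31 to 1.32, limma adjusted p = 0.0551). Atf4 passed without CKO 1 (limma adjusted p = 0.0126), with the same FPKM sum (0.0436), with voom (0.041) and with a filter at 5 FPKM (0.0466).

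Hsf1, the heat shock factor, had 4.69, 3.74 and 4.12 FPKM in CKO hearts, against 5.86, 5.71 and 5.76 FPKM in flox hearts. It was lower in every CKO library (log2 fold change -0.39, SE 0.09, limma adjusted p = 0.0423). Its call was lost without CKO 2 (limma adjusted p = 0.0991), CKO 3 (0.112), flox 1 (0.139), flox 2 (0.102) and flox 3 (0.122), without a variance trend (0.0505), without a filter (0.0903) and with the same FPKM sum (0.168), and it held in 3 of 12 alternatives. Hspd1 and Hspe1, with HSF letters in the windows described above, were not called, with log2 fold changes of -0.13 and 0.16.

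Other mitochondrial gene families gave a different median. The 37 tested nuclear genes of complex I had a median log2 fold change of -0.41, with 36 of them negative, and the 77 tested mitochondrial ribosomal protein genes had a median of -0.23, with 60 negative. For the import, folding and protease genes the median was -0.07, with 21 of 34 negative. Limma called 3 complex I genes (8.11%) and 11 ribosomal protein genes (14.3%), against 11.2% of all tested genes, while voom called 5 complex I and 12 ribosomal protein genes. Without flox 2 the ribosomal protein median was -0.15 and the complex I median -0.30. Without CKO 3 the medians were -0.26 and -0.52. With a library left out, limma called 1 to 7 ribosomal protein genes. It called 3 complex I genes without CKO 3, with 27 at an unadjusted p under 0.05, and 1 without CKO 1. Without CKO 2, flox 1, flox 2 or flox 3 it called 0, with 7 to 19 at an unadjusted p under 0.05 in those 4. Over all tested genes, limma called 315 to 1490 with a library left out. The difference between these lists was not tested.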

How the data were processed

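Libraries were made from poly-A RNA, per the labels' protocols, primed with random hexamers and read for 150 bp at both ends; strand marking is not described. The authors deposited FPKM, 1 column per library, and a gene length. Per the submitters' processing notes, CASAVA, HISAT2 2.0.5, featureCounts 1.5.0-p3, DESeq2 1.20.0 and the build GRCm38.p6 were used; which step made which value is not stated. FPKM times gene length gave whole reads in 100% of values (tolerance 0.001), and these recovered reads entered an alternative fit.

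Samples were grouped by title. The 12144 genes that averaged 1 FPKM or more over all libraries entered limma (version 3.58.1, R 4.3.3) as log2(FPKM + 1). Genotype was the only factor, eBayes used a variance trend, tests were 2-sided and Benjamini-Hochberg adjustment ran over all of these genes. The procedure was run on simulated data whose changes were larger than those of any tested member and whose spread was fixed. That run does not show how changes of the sizes seen in the members are called. Shares of paralogs were tested with exact permutation tests over 20 arrangements. Alternatives were a pseudocount of 0.1, no filter or a mean of 5 FPKM, no variance trend, the same FPKM sum in every library, a replicate block and each library left out in turn. Voom with limma on the recovered reads, scaled by the library denominators of the deposited FPKM, was added after seeing the data and called 1427 genes (11.8%). Count models had also been listed as alternatives; their values are not reported, since the deposited unit is FPKM.

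All members may be named, with full statistics for those called and for a set list of central subunits; of the other lists, called genes are named. Chchd4, Atf4, Opa1 and Mfn2, none of them called, were picked beyond that rule with their values known, as were the ratios of proteases. The members and lists were chosen with earlier results of these data known. The alternatives for genes that are no members, and for the ratio of Afg3l2 to Spg7, were added after seeing the data. The list of further genes held 34 symbols, of which 33 were matched. All 37 member IDs were found in GENCODE M21, 35 with identical bounds, and exon overlaps were read from it. Promoters are RefSeq windows of 300 bases. No batch is given in the labels. Figures were drawn with matplotlib 3.10.9 under Python 3.11.15, and tables made with pandas 2.3.3, numpy 2.4.6 and scipy 1.17.1.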

Additional observations from a re-analysis of the deposited data

How the results depend on the processing

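Of the 34 tested members, 32 were on the same side of the threshold and with the same sign as reported under a replicate block and under the same FPKM sum, 33 each under no filter, a pseudocount of 0.1 and voom, and 34 without a variance trend. Members called numbered 1 without a filter and 0 to 2 with a library left out. Called genes of the further list numbered 1 to 3 with a library left out. Over all tested genes the calls numbered 798 without a filter and 315 to 1490 with a library left out. Ythdc1 had a log2 fold change of -0.50 under the same FPKM sum and of -0.60 to -0.50 with a library left out. A trial of the count models on the recovered reads also called Lonp1, Timm22 and Timm44, but it called more genes in all than limma. Its values are not reported because the deposited unit is FPKM. Whether these genes are called depends on the test.

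The labels do not say that replicate numbers pair the samples. Deviations of same-numbered libraries correlated at 0.139, 0.0597 and -0.00548, and those of differently numbered libraries at -0.231 to 0.141. With 3 libraries a group, these values cannot decide whether the numbers pair the samples. With the number as a replicate block, limma called 0 members (7 at an unadjusted p under 0.05), against 2 by voom without a block, and 715 genes in all; Ythdc1 stayed at -0.54 (limma adjusted p = 0.0542). The block also left Afg3l2 (limma adjusted p = 0.121), Timm21 (0.0596), Oxa1l (0.0917), Hsf1 (0.0874) and Mtfr1 (0.0825) uncalled.

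Signs turned only in members that were not called. Tomm7 was at -0.000434 with a pseudocount of 0.1 and at -0.00385 with voom, and Tomm70a at 0.039 under the same FPKM sum. With a library left out, log2 fold changes spanned -0.25 to 0.024 for Timm8b, -0.16 to 0.028 for Phb, -0.18 to 0.11 for Tomm5, -0.15 to 0.23 for Tomm7, -0.14 to 0.050 for Tomm40, -0.056 to 0.067 for Tomm70a, -0.19 to 0.078 for Timm8a1, -0.013 to 0.21 for Htra2, -0.079 to 0.14 for Tomm40l, -0.028 to 0.11 for Timm10b, -0.15 to 0.045 for Phb2, -0.19 to 0.045 for Tomm22 and -0.20 to 0.016 for Timm50. The cause was not tested. The ratio of Afg3l2 to Spg7 was chosen after its values were seen. With a library left out, that ratio was 1.76 to 1.97 times as high in CKO as in flox hearts. With 3 libraries a group, differences near the spread between libraries could not be called, and messenger RNA does not measure protein or import. Timm10b had the fewest reads of the tested members, 96 to 151 per library, and a standard error of 0.10, against 0.19 for Tomm5 with 943 to 1422 reads, on a scale that compresses low values.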

Other observations

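Genes of mitochondrial fusion and fission, which reshape the organelle into which these proteins are imported, were listed after the files were seen. Of 11 tested, 2 were called lower, 0 were called higher and 9 were not called. The share called was 18.2%, against 11.2% of all tested genes, and the share called lower in all tested genes was 5.49%; no difference from that background was tested. Mtfp1, an inner membrane protein that promotes fission, measured 23.6, 19.8 and 18.7 FPKM in CKO hearts, against 60.1, 76.9 and 62.9 FPKM in flox hearts. The highest CKO library was far below the lowest flox library (log2 fold change -1.64, limma adjusted p = 0.00403), and the call held in all 13 alternatives. Mtfr1, a fission regulator, averaged 6.08 ± 0.0649 FPKM in CKO hearts and 8.15 ± 0.339 FPKM in flox hearts (-0.37, limma adjusted p = 0.0273). Its call was lost without CKO 2 (limma adjusted p = 0.0707), CKO 3 (0.0743), flox 1 (0.109), flox 2 (0.0563) and flox 3 (0.0993), and with the same FPKM sum in every library (0.228), and it held in 6 of 13 alternatives.

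Opa1, the inner membrane fusion protein that Yme1l1 and Oma1 cleave, had 16.0, 17.0 and 17.7 FPKM in CKO hearts and 25.6, 25.9 and 19.3 FPKM in flox hearts. The groups did not overlap, although flox 3 came close to the CKO libraries (log2 fold change -0.45, limma adjusted p = 0.076). It passed in 1 of 13 alternatives, without flox 3 (limma adjusted p = 0.0458). Mfn2, an outer membrane fusion protein, had 166 ± 19.7 FPKM in CKO hearts and 169 ± 15.8 FPKM in flox hearts (-0.03, limma adjusted p = 0.913).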
